A study of Mus musculus with 8 samples.

Results

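The genes for the proteins of the cytosolic ribosome were measured in neonatal mouse brain. They were chosen by name, as genes called Rpl or Rps with a number and at most 1 letter, together with Rplp0, Rplp1, Rplp2 and Rpsa. The rule found 80 of the 32285 genes in the count table, 31 of the small subunit and 49 of the large subunit, and 77 of them had enough counts to be tested.

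The ribosome is the particle that translates messenger RNA into protein. Its small subunit reads the messenger, and its large subunit joins the amino acids and lets the new chain out through a tunnel. Most ribosomal proteins are made in equal numbers, because each ribosome holds 1 copy of nearly all of them, and free ribosomal proteins are rapidly degraded. Their messengers belong to the most abundant of growing cells, and in mammals many begin with a C followed by a run of pyrimidines, the 5′ terminal oligopyrimidine motif through which the mTOR kinase controls their translation. In the developing brain, dividing progenitors and growing neurons both depend on ribosome supply.

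The 8 libraries came from brain tissue of C57BL/6 mice. The 4 control libraries were made from neonates of naturally mated wild-type parents. The 4 ICSI-F2 libraries were made from male neonates whose fathers had been conceived by intracytoplasmic sperm injection (ICSI), in which a sperm is placed directly into the egg, and had then mated naturally. The sex of the controls, the exact age in days and the number of litters or fathers are not given in the labels, and no group carries a mutation or drug treatment. The sample codes of control replicates 1 and 2 hold the letter A and those of replicates 3 and 4 the letter D. ICSI-F2 replicates 1 and 2 have the letter F, replicates 3 and 4 the letter G, and the meaning of the letters is not given. The letters lie within the groups, so a letter and the group cannot be told apart.

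Library totals ran from 12968175 to 16551511 counts, and 156196 to 199076 of these fell on ribosomal protein genes. The neuronal markers were Tubb3, Snap25, Stmn2, Map2, Rbfox3, Syt1, Gap43 and Dcx, all detected in every library. They summed to 7626 to 7726 CPM (a count scaled to the library total) in control and 7411 to 7480 CPM in ICSI-F2 libraries. The groups stood apart on this sum, but of the 8 genes only Dcx stood apart singly. Above control lay 1 of 8, and none was called in the edgeR test with all 8 libraries. Radial glia and progenitor markers overlapped, at 796 to 864 CPM against 814 to 861 CPM. The astrocyte list (6 genes) summed to 760.0 to 956 CPM in control and 698 to 823 CPM in ICSI-F2 libraries, with 1 of 6 genes above control, and the oligodendrocyte lineage list (7 genes) to 265 to 305 CPM against 256 to 282 CPM, with 0 of 7 above. No astrocyte or oligodendrocyte marker was at 0 in any library, and no gene of either list was called in the edgeR test with all 8 libraries. The erythroid list (6 genes, Hba-a1 at 0 in 7 libraries) summed to 9.08 to 13.7 CPM in the controls and 16.0 to 17.5 CPM in ICSI-F2 libraries. The groups stood apart on this sum, and 3 of 3 tested genes lay above control. The meningeal list (7 genes, none at 0) summed to 384 to 413 CPM against 404 to 544 CPM, with 7 of 7 above. Microglial markers (6 genes) overlapped, at 47.5 to 51.2 CPM against 48.5 to 59.0 CPM, with 5 of 6 above. No gene of these lists was called in the edgeR test with all 8 libraries. Hbb-bs (log2 fold change 0.73) was called in an edgeR fit that left out 1 library (adjusted p = 0.0275). Hox genes of the caudal hindbrain and spinal cord (7 genes) summed to 47.2 CPM in control replicate 1 and 19.7 CPM in control replicate 2, and to at most 0.613 CPM in the other libraries. The liver list (6 genes, 1 tested) overlapped, with sums of 272 to 415 CPM in control and 311 to 443 CPM in ICSI-F2 libraries. Most of the sum was Ttr, the tested gene (log2 fold change -0.0027, adjusted p = 0.999 in the edgeR test). The sum therefore does not show the other genes of the list. Within that list, Alb was at 0 in all controls and at 0.0610 to 20.2 CPM in ICSI-F2 libraries. Afp and Apoa1 overlapped, with highest values of 0.144 and 0.367 CPM in control and 6.23 and 2.05 CPM in ICSI-F2 libraries. Fgb was at 0 in all controls and reached 2.36 CPM in ICSI-F2 libraries. Serpina1a was at 0 in 7 libraries. The part of these differences in tissue content in the ribosomal protein values was not tested. In bulk tissue, fewer cells of a type and less RNA per cell cannot be told apart.

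RefSeq promoters of the GRCm38.p6 build were found for 60 of the 80 members. A C at the annotated start base followed by at least 4 more pyrimidines occurred in 13 of the 60 (21.7%), against 813 of 27025 genes in the whole table (3.01%). Windows of 30 bases on the gene's strand, 10 before the start base and 20 from it onward, are printed for some members that recur in the results. The pyrimidine run is in capitals. The printed windows hold the run more often than the 60 members do. Rps24, Rpl34, Rpl36a and Rpl5 also recur, have no run at the start base and are not printed. Rpl15, at chr14:18270967-18270996 on the minus strand, had the longest run of those printed, and Rps10 (chr17:27635225-27635254, minus), Rps6 (chr4:86857348-86857377, minus), Rpl38 (chr11:114668570-114668599, plus), Rps27 (chr3:90213629-90213658, minus) and Rplp2 (chr7:141447641-141447670, plus) follow. Rpl23 (chr11:97782420-97782449, minus) and Rpsa (chr9:120127756-120127785, plus) have no such run at the annotated base and are printed without capitals.
Rpl15: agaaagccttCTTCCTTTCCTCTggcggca
Rps10: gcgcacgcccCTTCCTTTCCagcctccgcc
Rps6: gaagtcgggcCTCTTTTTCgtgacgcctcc
Rpl38: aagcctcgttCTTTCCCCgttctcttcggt
Rps27: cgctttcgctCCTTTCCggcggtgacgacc
Rplp2: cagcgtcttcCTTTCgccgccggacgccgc
Rpl23: gtccggtcacgtggctgagtgggcggggcc
Rpsa: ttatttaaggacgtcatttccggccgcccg

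When the run was allowed to begin anywhere in the same 30 bases, 41 of 60 members (68.3%) and 39.6% of all genes held one. An annotated start can lie some bases away from the start that cells use, so no match says only that these letters are not at this base. In the wider window, from 250 bases before the start to 50 after it, the letters CCGGAAG, which ETS-family factors can bind, were found on either strand in 25 members (41.7%), against 9.93% of genes. The letters ATGGCGG, the core of the YY1 motif, were found in 10 members (16.7%), against 4.69%. The motifs were searched separately, and a promoter can hold more than 1 of them. By the run at the start base, the median log2 fold change was 0.040 for the 13 members with it and 0.031 for the 44 tested members without it, a description only.

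Ribosomal protein transcripts differed in level, with most near the median and a few far from it. Levels of different genes are given as CPM per kilobase of the coding transcript, averaged over all 8 libraries, and the SD given is over these libraries. The median member stood at 169 CPM per kilobase, the middle of the range ran from 120 to 238 (the quartiles), and 65 of 77 members lay within a factor of 2 of the median. Small-subunit genes had a median of 197 and large-subunit genes of 147 CPM per kilobase. The annotated length enters these values, and 11 members came out over 1.5 times higher when the shortest transcript with the full coding sequence was used. With that length the medians were 223 for the small and 190 for the large subunit (an alternative added after the values were seen).

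Rplp1, which encodes the acidic protein P1 of the stalk that recruits elongation factors, had the highest level, 476 ± 17.0 CPM per kilobase (SD, n = 8). Rpl41, which encodes the smallest ribosomal protein, stood at 428 ± 16.5 (SD, n = 8) and Rps15, a protein of the small-subunit head, at 415 ± 10.7 CPM per kilobase (SD, n = 8). Rpl41 and Rps15 differed by less than the SD of Rpl41 but by more than that of Rps15, and Rplp1 lay above both by more than 1 SD. Rpl23a, at the mouth of the exit tunnel, had 385 ± 19.9 and Rps29, a zinc-binding small-subunit protein, 333 ± 23.4 CPM per kilobase (SD, n = 8). These 5 genes kept the same values with the shortest transcript, since their coding transcript is already the shortest. Their rank did not hold, because Rps28 rose from 252 to 407 CPM per kilobase with that length, above Rpl23a and Rps29. The rank also changed when only read stretches found in no other gene were taken as the length, as given below.

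At the other end stood Rps27l, a p53-responsive paralog of Rps27, at 19.7 ± 2.32 CPM per kilobase (SD, n = 8). Rps20, a small-subunit head protein, was also low per kilobase, at 35.6 ± 1.23 CPM per kilobase (SD, n = 8). Its annotated transcript has 3706 bases, of which 357 are coding. Before division by length Rps20 had a mean of 132 CPM, as did Rplp2, whose transcript has 964 bases. Rps15a (34.0), Rpl18 (42.8) and Rpl22 (50.8 CPM per kilobase) were also among the lowest, but their coding transcripts are annotated at 5179, 2989 and 2051 bases. With the shortest transcript that holds the full coding sequence they stood at 276, 189 and 220 CPM per kilobase. Rps27l and Rps20 have no shorter full coding transcript, so this alternative could not change their values. The part of the annotated length in the low value of Rps20 was not tested.

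**Figure D1:**
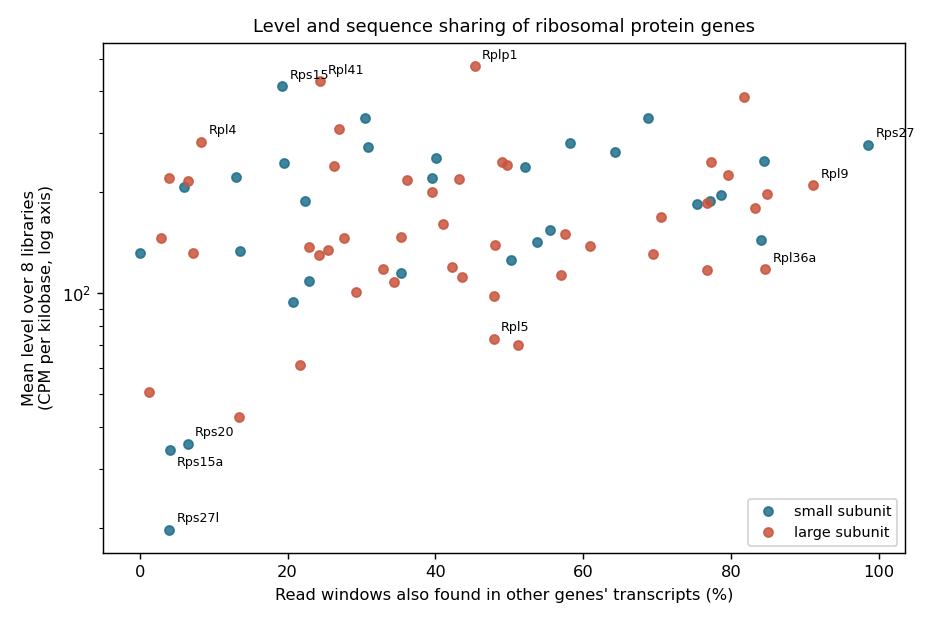
Mean level of the tested members over 8 libraries (CPM per kilobase, log axis) against the percentage of its 76-base read windows that also occur in transcripts of other genes. Each point is 1 gene, coloured by subunit; Rps27 lies at the right edge at 98.5% with a level of 277, and Rps27l lies lowest at 19.7 CPM per kilobase.

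The paralogs known from other tissues were near or at zero in brain. Rpl10l, a testis gene, had 0 counts in all 8 libraries. Rpl39l, also a testis gene, had 1 count, in ICSI-F2 replicate 3, and Rpl3l, a gene of striated muscle, had 0 to 2 counts per library. Their broadly expressed counterparts were well measured: Rpl3 at 242 ± 3.23 CPM in the controls and 242 ± 4.11 CPM in the ICSI-F2 brains (SD, n = 4 each), Rpl10 at 170 ± 9.13 and 169 ± 5.72 CPM, and Rpl39 at 78.4 ± 2.91 and 83.1 ± 3.12 CPM. Rps27l, the only paralog that passed the filter, had 11.6 ± 1.57 CPM in the controls and 11.1 ± 1.24 CPM in the ICSI-F2 brains (SD, n = 4 each). Rps4x, an X-linked small-subunit gene, had 232 ± 4.55 and 232 ± 4.81 CPM.

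Ribosomal protein genes are known for their many processed pseudogenes, and this bears on how precisely their reads can be placed. Every 76-base stretch of each member's coding transcript, the length of a read, was searched in the GENCODE M21 transcripts of all other genes. A median of 39.5% of a member's stretches occurred elsewhere, 28 members had 50% or more and 15 had 75% or more, while Rps3, Rpl3l and Rpl39l were among those with none. The sharing genes numbered 694, of which 660 are annotated as processed pseudogenes and 27 have a row in the count table. Rpl7a shared stretches with 64 other genes, the most of any member, and Rpl21 with 61.

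Rps27 was the extreme, with 4 of 270 stretches found nowhere else, yet it had 92.2 ± 4.76 CPM in the controls and 99.2 ± 3.76 CPM in the ICSI-F2 brains (SD, n = 4 each). Rpl9 (91.1%), Rpl10 (84.9%), Rpl36a (84.6%) and Rps12 (84.4%) came next, and their counts are uncertain in the same way, since how the authors treated reads with several placements is not given. The rows named as pseudogenes of these genes took few counts: Rpl10-ps3 had 1 to 4, Rpl36a-ps1 1 to 5 and Rpl9-ps6 0 to 8 per library. Other rows that share stretches with a member took more, among them Gm2000 (53 to 79), Gm5148 (53 to 71) and Gm10076 (10 to 26). The most counts fell on Btrc (1089 to 1356), BC004004 (518 to 696), Uimc1 (195 to 312) and Med21 (150 to 234). How many of those counts came from shared stretches was not tested. With stretches found nowhere else as the length, Rps27 stood at 23931 CPM per kilobase, Rpl9 at 2622, Rpl23a at 2423 and Rps12 at 1900. Rplp1, Rpl41 and Rps15 then stood at 1024, 665 and 605 CPM per kilobase. Which order of levels holds depends on how reads with several placements were treated. Across the 77 tested genes, level and shared percentage had a Spearman rho of 0.21 with the coding transcript and -0.052 with the shortest transcript. Genes are not independent replicates, and these coefficients describe these libraries only.

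The comparison of ICSI-F2 with control brains asks whether the sons of ICSI-born fathers show other brain transcript levels. No ribosomal protein gene passed the test, and the members differed between the groups by less than 1.12-fold. In edgeR's quasi-likelihood test with Benjamini-Hochberg adjustment over 15565 genes, 0 of 77 members were called higher and 0 lower, beside a background of 1 gene called higher (0.00642%) and 0 called lower (0%). DESeq2 and limma voom also called 0 members. At an unadjusted p under 0.05, 16 members were higher (background 3.93% of tested genes) and 1 was lower (background 3.37%). By DESeq2 13 members and by limma voom 17 members had an unadjusted p under 0.05 in either direction. The share of all tested genes at that cut was not counted for DESeq2 or voom, so these counts stand without a background.

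Fold changes ran from 0.946 (Rpl12) to 1.11 (Rpl36a). The 95% intervals of all 77 members lay within 1.25-fold of no change, from 0.820 to 1.21. Ribosomal protein genes were measured more tightly than most. Their median standard error (SE) was 0.039 on the log2 scale against 0.077 over all tested genes, and the median SD within a group was 0.054 against 0.10. These values were not matched for count level. Rps27l, with 128 to 201 counts per library, had the largest SE of the members, 0.11. The calls are thus 0 at a precision at which a 1.5-fold change of any member lies outside its interval.

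The small differences lay more often above than below control. A fold change above 1 was measured in 57 of 77 members, against 50.4% of all tested genes, and the median log2 fold change was 0.032 against 0.00065. For the small subunit 21 of 31 genes lay above, with a median of 0.028, and for the large subunit 36 of 46, with a median of 0.041. The share of members above control was already known when the genes were chosen, so it is a description. Since ribosomal protein genes are known to vary together, the 77 genes are far from 77 separate observations.

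**Figure D2:**
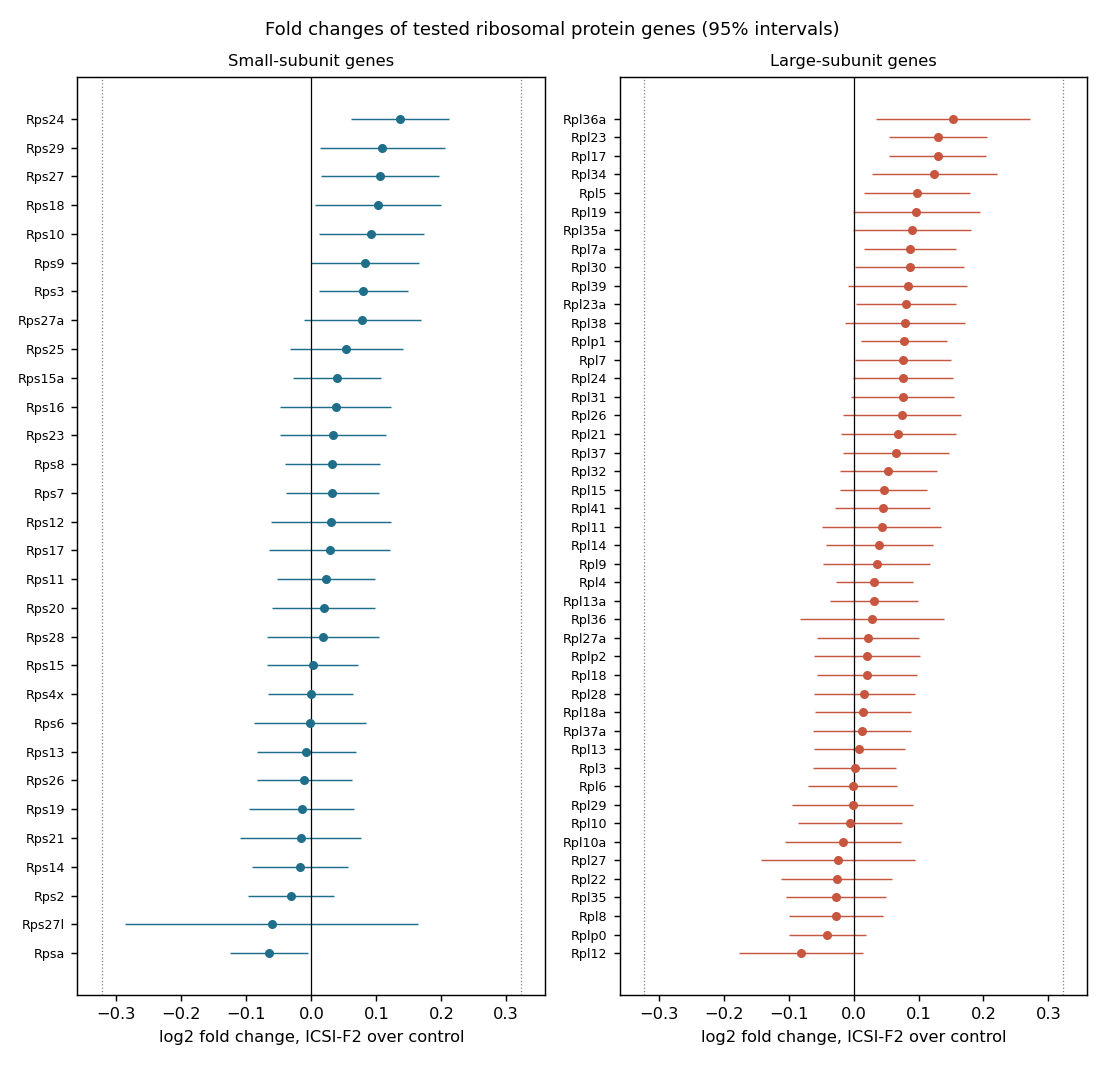
Log2 fold change of ICSI-F2 over control for the tested small-subunit and large-subunit genes, ordered by size. Points are edgeR estimates, bars are 95% intervals, and the dotted lines mark 1.25-fold; every bar lies between the dotted lines, and most points lie right of 0.

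The level of the whole set shows how far single libraries decide this. Ribosomal protein genes took 1.18%, 1.21%, 1.19% and 1.19% of all counts in control replicates 1 to 4 and 1.22%, 1.25%, 1.20% and 1.24% in ICSI-F2 replicates 1 to 4. The group means were 1.19 ± 0.0139% and 1.23 ± 0.0225% (SD, n = 4 each), and the groups overlapped, with ICSI-F2 replicate 3 below control replicate 2. Small-subunit genes took 0.498 ± 0.00673% and 0.511 ± 0.00718%, and large-subunit genes 0.692 ± 0.00727% and 0.716 ± 0.0155%. The ratio of small to large was 0.717 to 0.723 in control and 0.708 to 0.723 in ICSI-F2 libraries, so these ranges overlapped too. By code letter, the mean share was 1.19% for A, 1.19% for D, 1.23% for F and 1.22% for G.

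**Figure D3:**
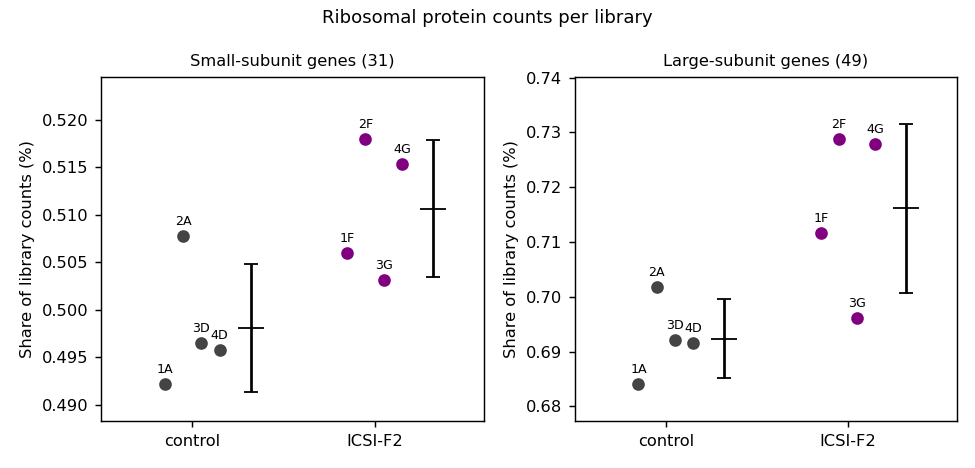
Percentage of each library's counts that fell on small-subunit (left) and large-subunit (right) genes; the axes do not start at 0. Each point is a library marked with its replicate number and code letter, and the bars give the group mean ± SD (n = 4); in both panels ICSI-F2 replicate 3 is the lowest ICSI-F2 library and control replicate 2 the highest control.

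The libraries of a group differed among themselves. Relative to each gene's own mean over the 8 libraries, 60 of 77 members were above it in ICSI-F2 replicate 2 and 58 in ICSI-F2 replicate 4. ICSI-F2 replicate 3 had 25 members above their mean, close to the 23, 23 and 24 of control replicates 1, 3 and 4, and control replicate 2 had 45, as many as ICSI-F2 replicate 1. Without ICSI-F2 replicate 2, the median log2 fold change was 0.019 in place of 0.032. The small-subunit median of 0.028 was 0.013 without that library, 0.019 without ICSI-F2 replicate 4, 0.018 without control replicate 3 and 0.017 without control replicate 4. Members with an unadjusted p under 0.05 in the edgeR test numbered 17 with all 8 libraries. Their number was 11 without ICSI-F2 replicate 2, 6 without ICSI-F2 replicate 4 and 6 without control replicate 4. Leaving out control replicate 1, 2 or 3 gave 15, 19 and 16 members, and leaving out ICSI-F2 replicate 1 or 3 gave 17 and 19. No background share of all tested genes was counted for these fits, so part of the change can be general. Without ICSI-F2 replicate 3, 65 members lay above control.

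**Figure D4:**
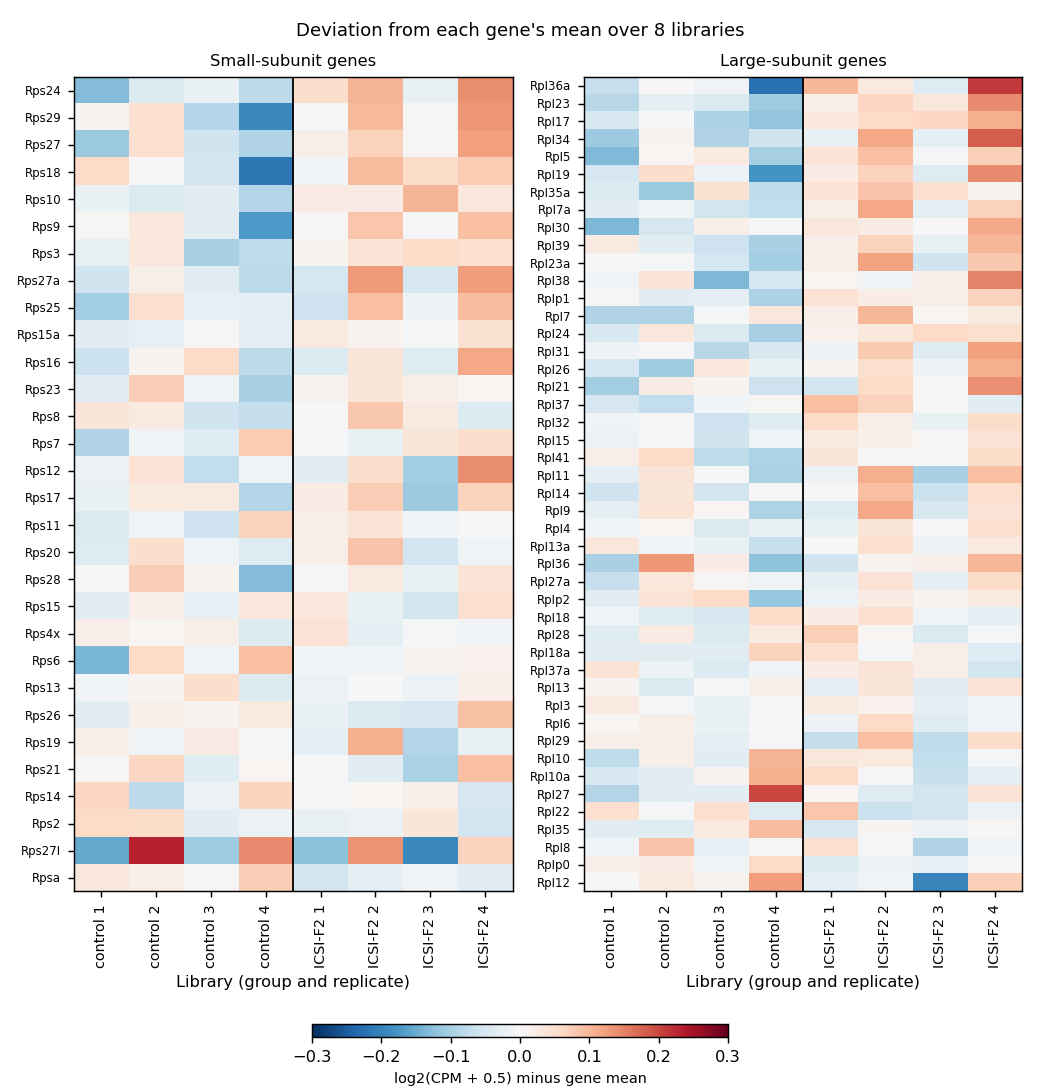
Deviation of log2(CPM + 0.5) from each gene's mean over the 8 libraries, for the tested small-subunit (left) and large-subunit (right) genes, ordered by fold change. Red is above and blue below the mean; ICSI-F2 replicates 2 and 4 are mostly red, and ICSI-F2 replicate 3 resembles controls in most rows.

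Among small-subunit genes, Rps24 had the smallest p. The protein binds pre-ribosomal RNA, and its human gene is among those mutated in Diamond-Blackfan anaemia. Rps24 (ENSMUSG00000025290, chr14:24487125-24496959, plus strand, GRCm38) had 197, 209, 213 and 204 CPM in the controls and 224, 232, 212 and 237 CPM in ICSI-F2 replicates 1 to 4. The groups overlapped, with ICSI-F2 replicate 3 just under control replicate 3. The log2 fold change was 0.14 (SE 0.037), and the adjusted p was 0.427 (edgeR quasi-likelihood test). Only 13.6% of its read stretches occur in other genes.

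Rps10, a protein of the small-subunit head that is ubiquitinated when ribosomes stall, had 99.5, 97.9, 98.6 and 94.8 CPM in the controls and 103, 103, 108 and 103 CPM in ICSI-F2 libraries. The groups did not overlap, and ICSI-F2 was the higher. The log2 fold change was 0.092 (SE 0.039), and the adjusted p was 0.625 in the edgeR test. Rps27 had a log2 fold change of 0.11 (adjusted p = 0.612) and Rps29 of 0.11 (adjusted p = 0.626), and in both the groups overlapped.

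Rpsa was the member that lay below control with the groups apart. It encodes a small-subunit protein that is also described as a laminin receptor. Rpsa (ENSMUSG00000032518, chr9:120127689-120132369, plus strand) had 439, 434, 429 and 451 CPM in the controls and 411, 421, 425 and 418 CPM in ICSI-F2 libraries. The highest ICSI-F2 library, replicate 3, lay just under the lowest control, replicate 3. The log2 fold change was -0.065 (SE 0.029), a fold of 0.956, and the adjusted p was 0.65 in the edgeR test.

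Rps6, the substrate of the S6 kinases downstream of mTOR, was at 127 ± 8.69 CPM in the controls and 126 ± 1.17 CPM in the ICSI-F2 brains (SD, n = 4 each). Rps2, at the messenger's entry channel, was at 323 ± 10.7 and 316 ± 8.52 CPM, and Rps19, the most often mutated gene of human Diamond-Blackfan anaemia, at 141 ± 1.73 and 139 ± 8.16 CPM. Rps27a, which is made as a fusion with ubiquitin, was at 118 ± 3.44 and 125 ± 8.92 CPM (log2 fold change 0.078, adjusted p = 0.724 in the edgeR test). Libraries of the groups overlapped for each of these 4 genes.

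Among large-subunit genes, Rpl23 and Rpl17 were separated between the groups. Rpl23, a conserved protein at the interface between the subunits, also binds the p53 regulator Mdm2 when it is free. Rpl23 (ENSMUSG00000071415, chr11:97777527-97782437, minus strand) had 146, 151, 149.7 and 143 CPM in the controls and 156, 161, 158 and 170.4 CPM in ICSI-F2 libraries, and the groups did not overlap. The log2 fold change was 0.13 (SE 0.037) and the adjusted p 0.427 in the edgeR test.

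Rpl17, which lines the exit tunnel, is on chromosome 18 (ENSMUSG00000062328, chr18:74998558-75003381, plus strand). It had 143, 147, 138 and 136 CPM in the controls and 151, 154, 154 and 159 CPM in ICSI-F2 libraries, again without overlap. The log2 fold change was 0.13 (SE 0.037), and the adjusted p was 0.427 in the edgeR test. Rpl17 shares 43.6% of its stretches with 25 other genes, and Rpl23 27.6% with 1.

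Rpl36a, near the site where spent transfer RNA leaves, had the largest fold of the members, with 54.0, 56.6, 56.3 and 48.4 CPM in the controls and 60.8, 57.8, 55.2 and 65.7 CPM in ICSI-F2 libraries. ICSI-F2 replicate 3 lay below control replicates 2 and 3, so the groups overlapped. The log2 fold change was 0.15 (SE 0.058) and the adjusted p was 0.562 in the edgeR test, and 84.6% of its stretches are shared. Rpl34 had 91.7, 99.6, 92.9 and 94.8 CPM in the controls and 97.3, 107, 96.8 and 112 CPM in ICSI-F2 libraries. It overlapped as well, with a log2 fold change of 0.12 (adjusted p = 0.562 in the edgeR test).

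The stalk genes lay on both sides of control. Rplp1 had 238, 232, 233 and 222 CPM in the controls and 245, 241, 241 and 249 CPM in ICSI-F2 libraries, without overlap and with a log2 fold change of 0.077 (adjusted p = 0.62 in the edgeR test). Its partner Rplp2 was at 131 ± 7.17 and 133 ± 1.91 CPM, and Rplp0, the base on which both sit, at 424 ± 8.63 and 413 ± 4.98 CPM (SD, n = 4 each; log2 fold change -0.040, adjusted p = 0.795). Rpl12, which binds the stalk base, was at 125 ± 5.07 and 118 ± 9.07 CPM (log2 fold change -0.081, adjusted p = 0.726), and its log2 fold change was -0.032 without ICSI-F2 replicate 3 and -0.054 without control replicate 4. No difference between these genes was tested. Rpl8, a protein close to the site of peptide bond formation, was at 227 ± 7.86 and 223 ± 8.72 CPM, and Rpl22, which is needed for T-cell development in mice, at 105 ± 3.17 and 103 ± 4.96 CPM.

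Rpl5 and Rpl11, which travel with the 5S RNA and can stabilise p53 through Mdm2, had log2 fold changes of 0.097 (adjusted p = 0.607) and 0.043 (adjusted p = 0.868) in the edgeR test. Rpl5 was at 145 ± 7.95 CPM in the controls and 155 ± 4.59 CPM in the ICSI-F2 brains (SD, n = 4 each). Of the 8 genes whose proteins ring the tunnel exit, 7 had a fold change above 1 and Rpl35 below, and their median log2 fold change was 0.078. Rpl38, whose loss in mice disturbs Hox protein translation and the axial skeleton, had 98.8, 102, 90.6 and 96.0 CPM in the controls and 99.8, 98.9, 101 and 110.4 CPM in ICSI-F2 libraries. ICSI-F2 replicate 4 stood apart from the other 3, and the groups overlapped (log2 fold change 0.080, adjusted p = 0.724).

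In 5 members all ICSI-F2 libraries exceeded all controls, namely Rpl15, Rpl17, Rpl23, Rplp1 and Rps10 (background 1.97% of tested genes), and in Rpsa all lay below (background 2%). Rpl15, a protein of the large-subunit core, had 191 ± 3.28 CPM in the controls and 197 ± 2.27 CPM in the ICSI-F2 brains (SD, n = 4 each). Proteins found only in eukaryotes and archaea showed 24 of 28 large-subunit genes with a fold change above 1, and their median log2 fold change was 0.050, and 10 of 15 small-subunit genes, with 0.031. Proteins shared with bacteria showed 12 of 18, with 0.031, and 11 of 15, with 0.027.

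The fold changes were also set beside sequence sharing and length. Members with under 50% shared stretches had 38 of 49 above control and a median log2 fold change of 0.038, and those with 50% or more had 19 of 28 and 0.031. Ribosomal protein transcripts are short, with a median of 838 bases. The 1420 tested coding genes with the shortest transcripts (243 to 1277 bases) had a median log2 fold change of 0.011. Most members are themselves among these genes, so the 2 medians are not a separate comparison. Across members the Spearman rho of fold change with coding length was -0.24 and with GC content -0.22, against 0.045 and -0.064 over 14166 tested coding genes. These are correlations across genes and describe these libraries.

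Some ribosomal genes carry names outside the pattern. Rps3a1, a small-subunit gene, was at 147 ± 3.69 CPM in the controls and 156 ± 1.48 CPM in the ICSI-F2 brains (SD, n = 4 each; log2 fold change 0.087, adjusted p = 0.607 in the edgeR test). Rack1, the scaffold on the small-subunit head, was at 269 ± 10.9 and 275 ± 10.1 CPM, and Fau, which encodes a ubiquitin-like fusion with eS30, at 96.0 ± 5.61 and 93.8 ± 3.50 CPM. Rpl7l1, Rpl22l1 and Rpl36al, which are paralogs, had log2 fold changes of -0.030, 0.024 and 0.13. None of these was called.

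Genes that build, run or control the ribosome did not pass the test either: with all 8 libraries, edgeR over all tested genes called none in any of these lists. Ribosome biogenesis genes lay above control in 47 of 63 cases (median log2 fold change 0.035), and Utp3, of the small-subunit processome, had the smallest p (0.28, adjusted p = 0.542), before Mdn1, a remodelling ATPase of the large subunit (0.11, adjusted p = 0.562). Without the letter D libraries, Mdn1 was called higher (0.17, adjusted p = 0.0235), and without the letter A libraries it had 0.044 and was not called. Mitochondrial ribosomal protein genes lay above in 55 of 78, with a median of 0.047, led by Mrps23 (0.27, adjusted p = 0.427) and Mrps9 (0.19, adjusted p = 0.608). Noncoding hosts of small nucleolar RNAs, whose excised introns guide the modification of ribosomal RNA, lay above in 11 of 14, with a median of 0.096. Among them Snhg4 had 0.28 (adjusted p = 0.427) and Gas5, also a pyrimidine-start transcript, 0.17 (adjusted p = 0.530).

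Translation factors were even, 18 of 36 above control with a median of 0.0020, with Eef1b2, a nucleotide-exchange subunit of the elongation factor, at 0.13 (adjusted p = 0.539) and Eif3a, of an initiation factor, at 0.084 (adjusted p = 0.650). Genes that control ribosomal protein synthesis lay above in 12 of 21, with a median of 0.017, and the S6 kinase genes Rps6kb1 and Rps6kb2 had 0.14 (adjusted p = 0.540) and 0.26 (adjusted p = 0.664). The value of Rps6kb2 rested on which controls were used: without the letter D libraries it was 0.53 and was called (adjusted p = 0.00042), and without the letter A libraries it was 0.016 and was not called. Proteasome subunits, a list of another large particle, lay above in 17 of 31, with a median of 0.0099, and Psmd14 and Psmb5 had 0.14 (adjusted p = 0.539) and -0.10 (adjusted p = 0.734).

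**Figure D5:**
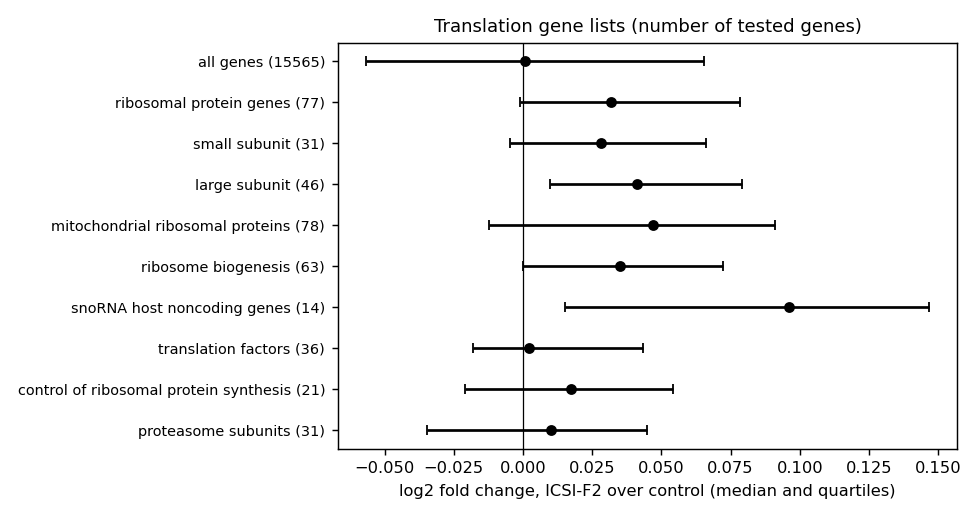
Median log2 fold change of ICSI-F2 over control (points) with the lower and upper quartiles (bars) for all tested genes, the ribosomal protein genes and other lists of translation genes, with the number of tested genes in brackets. The ribosomal protein genes have a median of 0.032 and the noncoding hosts of small nucleolar RNAs 0.096, while all tested genes, translation factors and proteasome subunits lie near 0.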

How the data were processed

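Single reads of 76 bases from stranded mRNA libraries were measured in 8 libraries, 4 in each of 2 groups. The submitters' processing notes name HISAT2 2.2.1, HTSeq 2.0.2, cutadapt 3.4 and bcl2fastq 2.20, and mouse build mm10. The deposited values are raw counts per gene. The sources used here do not give the annotation release, strand setting or treatment of reads with several placements. GENCODE M21, on the same build, gave lengths and positions for 32235 of 32285 identifiers (99.8%).

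Genes were filtered with filterByExpr, scaled by TMM and tested in edgeR 4.0.16 (R 4.3.3) with the robust quasi-likelihood F test. The model held group alone, and p-values were adjusted by Benjamini-Hochberg, with a threshold of 0.05. CPM values are counts scaled to the TMM-adjusted library total. DESeq2 1.42.0 and limma 3.58.1 voom were alternatives. On simulated counts for 15415 genes in this comparison the test recovered 50.0% of 1.25-fold and 79.6% of 1.5-fold changes, and 13 of its 169 calls (7.69%) were false. The window search used exact matches on both strands of transcripts alone.

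Replicates were numbered in deposition order. Nothing in the labels says that libraries of a group came from separate litters, so p-values measure only the spread between libraries. The members and the lists were chosen with earlier results of these data known. Named members were the 5 smallest p in each direction, the 5 highest and lowest levels, those that failed the filter, the 5 with most shared stretches, and genes of known role; from each other list the 2 smallest p were taken. Rps10 and Rpl15 were named after their values were seen, as libraries apart. Overlapping genes of the count table touch Rpl18, Rpl23a, Rpl28, Rpl35, Rpl5, Rps25, Rps27a and Rps28, whose counts are uncertain. A gene can be counted in the totals and not reported here.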

Additional observations from a re-analysis of the deposited data

Results flagged for a closer look

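Rpl38 in ICSI-F2 replicate 4 stood at 110.4 CPM, while the other 3 ICSI-F2 libraries lay between 98.9 and 101 CPM, a gap larger than Dixon's 95% critical value of 0.829 of the group's range. Among the 74 groups of 4 libraries examined, chance gives about 1 such sample in 20 groups. Without this library the log2 fold change of Rpl38 was 0.041, and without control replicate 3 it was 0.048, against 0.080 with all 8 libraries.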

How the results depend on the processing

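No ribosomal protein gene was called in any of the 19 other fits. The number above control ran from 50 (without letter F) to 65 (without ICSI-F2 replicate 3), and the median log2 fold change from 0.019 (without ICSI-F2 replicate 2) to 0.047 (without control replicate 2). Of 34 named members tested, 19 kept their sign in all fits and 15 changed it in at least 1, among them Rps4x, Rps6, Rps15 and Rpl3. The lowest adjusted p of a named member was 0.0708 (Rps24 without letter D). Over all genes, the 1 call higher became 35 with no filter on low counts, 4 by DESeq2, 4 without letter A, 65 without letter D and 25 without letter F. The 0 calls lower became 15 with no filter, 2 without letter A, 115 without letter D and 1 without letter F. Leaving out single libraries gave 1 to 9 calls higher (2 without control replicate 1, 9 without control replicate 3, 3 without control replicate 4) and 0 to 2 lower (2 without control replicate 1). The cause was not tested. The median level of 169 CPM per kilobase was 76.1 over the union of exons, 342 over windows found once and 203 with the shortest transcript, each by its own length; the last alternative and the split by shared stretches were added after the data were seen. The planned count of windows in the genome used transcripts alone. Scaling by total size gave a median of all genes of 0.012, against 0.00065. No paired analysis was possible because the replicate numbers follow deposition order and pair no libraries. Code letters as a correlated block (correlation 0.028) left 0 members called.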
